A study of Mus musculus with 2 samples.

Results

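This section describes 10 genes in mouse spinal cord RNA at postnatal day 7. Their proteins are adhesion molecules, or the anchors of these, at the node of Ranvier, the paranode beside it and the myelinated stretch beyond. They are Nfasc, Cadm4, Cntn1, Cntnap1, Cntn2, Cntnap2, Nrcam, Ank3, Sptbn4 and Epb41l3, and they were taken by gene name. All 10 were found among the 51826 genes of the deposited tables, and 105 of the 128622 listed transcripts belong to them. All 10 passed a level limit of 1 CPM (counts scaled to a common library size) averaged over the libraries. The first group (cKO) combined Olig1-Cre with Secisbp2l floxed at exon 3, and the second was wild type (WT). Both were C57BL/6 mice, and each group gave 1 library. Cre driven from Olig1 is used to act in the oligodendrocyte lineage, and which cells of these cords had lost the exon was not measured here. Secisbp2l encodes a relative of the selenocysteine insertion factor SECISBP2. The labels do not give the number of animals per library or say whether WT mice carried Cre or a floxed allele. With 1 library per group no difference has a replicate check and no p-value is given. Intervals are exact 95% intervals that cover counting error only.

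A myelinated axon conducts by jumps between nodes, the gaps where sodium channels gather. On the axon beside each gap, contactin 1 (Cntn1) and Caspr (Cntnap1) form a complex that binds NF155, a form of neurofascin (Nfasc) made by oligodendrocytes. At the node, the neuronal form NF186 and NrCAM (Nrcam) are held by ankyrin G (Ank3), which is tied to actin through beta-IV spectrin (Sptbn4). Further out, contactin 2 (Cntn2) and Caspr2 (Cntnap2) hold potassium channels under the myelin, while Epb41l3 encodes a membrane skeleton adaptor that anchors the Caspr proteins. Cadm4 encodes a glial adhesion molecule that faces the axon along the internode.

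The cKO library held 55179026 estimated counts and the WT library 42875143. Secisbp2l had 466 CPM in cKO and 588 CPM in WT, and these whole-gene values do not isolate exon 3. Xist had 13 counts in cKO and 35182 in WT, and Ddx3y had 4280 in cKO and 0 in WT, so genotype and sex cannot be told apart here. The 8 oligodendrocyte markers summed to 8099 CPM in cKO and 16705 CPM in WT, or -1.04 as a log2 ratio (cKO over WT, as for every ratio here). The 12 neuron markers summed to 7358 CPM in cKO and 6532 CPM in WT (0.17). The 5 Schwann cell markers summed to 1066 CPM in cKO and 972 CPM in WT (0.13), with 1 of the 5 lower (the X-linked Drp2, -0.81). Lower means past the size rule given with Nfasc below, which 3.42% of all genes at the level limit met in that direction. Of the same genes, 47.7% had ratios below 0. The 4 oligodendrocyte precursor markers summed to 647 CPM in cKO and 852 CPM in WT (-0.40), with 4 of 4 below 0 and Gpr17 lower (-0.64). The 4 meningeal and fibroblast markers summed to 2352 CPM in cKO and 2917 CPM in WT (-0.31), with 4 of 4 below 0 and Igf2 lower (-1.87). Summed markers of astrocytes, microglia and endothelium had ratios of -0.07, 0.00 and 0.13. In RNA of whole tissue, fewer cells of a type and less RNA per cell cannot be told apart.

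Neurofascin had the lowest ratio of the 10 genes. Nfasc (ENSMUSG00000026442, minus strand of chromosome 1, 132564690 to 132741797 in GRCm38) stood at 754 CPM in cKO and 1067 CPM in WT, on 41598 and 45774 counts. The cKO level was 70.7% of the WT level, a log2 ratio of -0.50 (interval -0.53 to -0.47). Of the measured genes, 5.30% had a lower ratio. The size rule used throughout asks for at least 1.5-fold (0.585 on the log2 scale) and a counting interval clear of equality, and Nfasc, at 1.41-fold, did not meet it.

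Because NF186 and NF155 come from 1 gene by alternative splicing, the transcripts were separated by the exons that define each form. NF155 contains the third fibronectin type III (FNIII) repeat, which NF186 lacks. NF186 contains a stretch rich in threonine that resembles mucin, which NF155 lacks. The exons below, all coding and all on the minus strand of chromosome 1, are shown because they tell the forms apart. Capitals mark in-frame threonine codons (ACN), which make up 3 of 38 and 3 of 68 whole codons in the FNIII exons and 33 of 78 in the mucin-type exon, or 42.3%.
Nfasc FNIII exon a, chr1:132600099-132600214: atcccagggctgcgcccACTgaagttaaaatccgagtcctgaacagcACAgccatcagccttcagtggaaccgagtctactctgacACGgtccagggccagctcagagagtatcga
Nfasc FNIII exon b, chr1:132597765-132597969: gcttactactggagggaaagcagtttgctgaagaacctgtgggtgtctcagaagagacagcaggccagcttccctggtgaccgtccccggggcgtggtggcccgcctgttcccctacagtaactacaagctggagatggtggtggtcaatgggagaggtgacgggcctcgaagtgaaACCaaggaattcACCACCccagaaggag
Nfasc mucin-type exon, chr1:132588074-132588310: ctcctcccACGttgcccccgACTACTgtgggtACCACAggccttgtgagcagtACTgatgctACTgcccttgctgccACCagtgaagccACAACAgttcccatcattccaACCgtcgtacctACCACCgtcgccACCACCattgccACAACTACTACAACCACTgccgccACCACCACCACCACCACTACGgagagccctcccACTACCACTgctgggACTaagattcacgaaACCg

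The 2 FNIII exons together span 321 bases, or 107 codons. The mucin-type exon and the 2 exons after it, called the mucin-type set here, span 507 bases, or 169 codons. The set is named for its first exon only, since threonine codons make up 3 of 38 and 9 of 50 whole codons in the 2 after it. Both sets keep the reading frame. Nfasc-202 held the mucin-type set without the FNIII exons, the make-up of NF186. Nfasc-201, Nfasc-203 and Nfasc-205 held the FNIII exons without the mucin-type set, the make-up of NF155. Nfasc-207 held both sets.

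**Figure D1:**
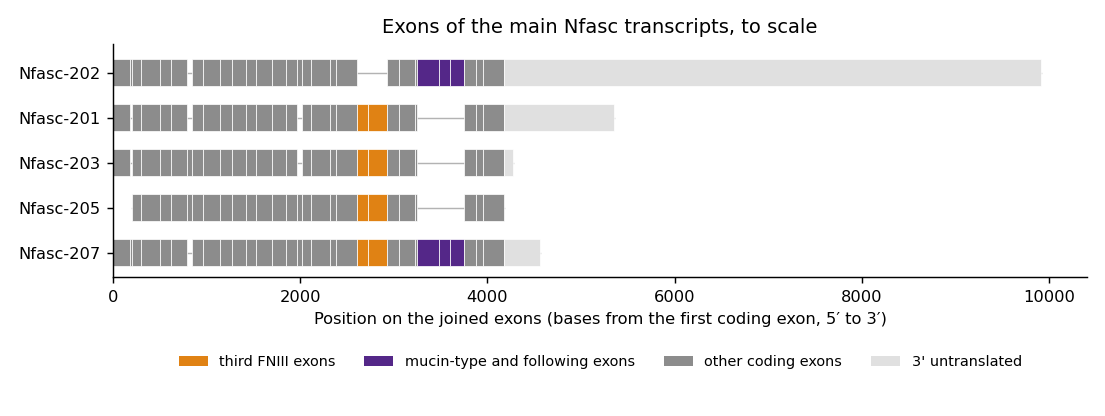
Exons of the 5 main Nfasc transcripts drawn to scale along the joined exons, in bases from the first coding exon; colours mark the FNIII exons, the mucin-type exon with the 2 after it, other coding exons and the 3′ untranslated end. Nfasc-202 lacks the FNIII exons and ends in 5733 untranslated bases.

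In the authors' division of reads, the transcripts of both neurofascin types had ratios below 0. The NF186-type transcript Nfasc-202 had 626 CPM in cKO and 891 CPM in WT (log2 ratio -0.51, interval -0.54 to -0.48). The 4 transcripts of NF155 type together had 117 CPM in cKO and 155 CPM in WT (-0.41, interval -0.48 to -0.34). Within the NF155 type the ratios ranged widely: Nfasc-203 had 33.6 CPM in cKO and 48.6 CPM in WT (-0.53, interval -0.66 to -0.40), and Nfasc-205 had 34.1 CPM in cKO and 38.9 CPM in WT (-0.19, interval -0.32 to -0.05). Nfasc-201, the third of them, was at -0.44 (interval -0.55 to -0.33). Nfasc-207, with both sets, had 9.28 CPM in cKO and 17.8 CPM in WT (-0.94, interval -1.18 to -0.71), and Nfasc-208, an incomplete transcript with the FNIII exons, had 3.37 and 5.29 CPM (-0.65). Of the 7 measured Nfasc transcripts, these last 2 were lower by the size rule and 0 were higher, against 12.9% and 13.2% of all measured transcripts. NF155-type transcripts took 15.5% of the gene's counts in cKO and 14.6% in WT.

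The share of each form depended on the scale. By TPM (a scale that divides by transcript length) the NF155 type took 29.2% of Nfasc in cKO and 27.9% in WT, since Nfasc-202 is annotated at 9739 bases. Of its 5733 untranslated bases at the 3′ end, 4559 are annotated in none of the other 4 transcripts drawn. Reads from those bases could be given only to Nfasc-202, whichever coding exons their RNA held. The ratio of each type, and their order with the NF155 type nearer to 0, therefore rest on the authors' division of reads.

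The axonal partners of NF155 had ratios above 0. Cntn1 (ENSMUSG00000055022, plus strand of chromosome 15, 92051165 to 92341967) stood at 667 CPM in cKO and 502 CPM in WT, a log2 ratio of 0.41 (interval 0.38 to 0.44). Of the measured genes, 5.71% had a higher ratio. Cntnap1 (ENSMUSG00000017167, plus strand of chromosome 11, 101170523 to 101190724) stood at 235 CPM in cKO and 200 CPM in WT, or 0.24 (interval 0.18 to 0.29). Cntnap1-201 held all counts of that gene, so this value does not depend on a division between transcripts. The gene overlaps exons of Plekhh3 on the other strand, but Cntnap1-201 begins 4689 bases beyond the end of Plekhh3.

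Per length, the proportion of whole-gene Nfasc to Cntn1 and to Cntnap1 differed more between the libraries than that of Cntn1 to Cntnap1. These Nfasc values are not of NF155 alone. The NF186-type transcript took 65.5% of the Nfasc TPM in cKO and 67.6% in WT. Cntn1 had 2.78 times the TPM of Cntnap1 in cKO and 2.88 times in WT. Nfasc had 0.815 times the TPM of Cntn1 in cKO and 1.28 times in WT. Relative to Cntnap1, Nfasc stood at 2.26 times in cKO and 3.68 times in WT. In CPM, the log2 ratio of Nfasc minus that of Cntnap1 was -0.74, and that of Cntn1 minus that of Cntnap1 was 0.17. The counting intervals overlapped in neither pair, and for Cntn1 with Cntnap1 the CPM and TPM differences had opposite signs.

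The juxtaparanodal pair differed in sign. Cntn2 (ENSMUSG00000053024, minus strand of chromosome 1, 132509427 to 132543256), which lies 21433 bases from Nfasc on the same strand, stood at 51.9 CPM in cKO and 39.2 CPM in WT (0.41, interval 0.28 to 0.53). Contactin 2 is made by neurons and by myelinating glia. Its counts were the fewest of the 10 genes, 2864 in cKO and 1682 in WT. Cntnap2 (ENSMUSG00000039419, plus strand of chromosome 6, 45059357 to 47304213) stood at 141 CPM in cKO and 169 CPM in WT (-0.27, interval -0.33 to -0.20).

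As the authors divided the reads, the negative ratio of Cntnap2 lay in a short transcript. Cntnap2-202, with 24 exons and 3996 coding bases, had 121 CPM in cKO and 103 CPM in WT, a log2 ratio of 0.23 (interval 0.15 to 0.31) beside the 0.24 of Cntnap1. Cntnap2-205, with 4 exons and 324 coding bases, had 19.7 CPM in cKO and 66.5 CPM in WT (-1.75, interval -1.90 to -1.61), past the size rule. The short transcript took 14.0% of the gene's counts in cKO and 39.2% in WT. The 2 transcripts end in nearly the same exon, of 5799 bases in Cntnap2-202 and 5795 in Cntnap2-205, so most bases of the short one are shared with the long one.

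Among the genes that anchor the node, Nrcam was near equality and Ank3 and Sptbn4 had ratios above 0. Nrcam (ENSMUSG00000020598, plus strand of chromosome 12, 44328885 to 44601964) stood at 172 CPM in cKO and 166 CPM in WT (0.05, interval -0.01 to 0.12), and its interval included 0. Ank3 (ENSMUSG00000069601, plus strand of chromosome 10, 69398773 to 70027438) stood at 313 CPM in cKO and 275 CPM in WT (0.19, interval 0.14 to 0.24). Sptbn4 (ENSMUSG00000011751, minus strand of chromosome 7, 27356383 to 27447686) stood at 118 CPM in cKO and 99.4 CPM in WT (0.25, interval 0.17 to 0.33). Ank3 had 3.15 times the TPM of its partner Sptbn4 in cKO and 3.30 times in WT.

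Neurofascin and NrCAM bind ankyrin through a short cytoplasmic motif, FIGQY, whose codons were found in frame in 2 of the 10 genes, these same 2. The stretches are shown because they mark the common docking site of 2 genes whose ratios differed (-0.50 for Nfasc and 0.05 for Nrcam). The search read the longest annotated coding sequence of each gene, capitals mark the FIGQY codons, and 50 of the 63 bases are the same.
Nfasc tail, chr1:132570483-132570545, minus strand: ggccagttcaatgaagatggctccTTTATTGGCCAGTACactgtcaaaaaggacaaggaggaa
Nrcam tail, chr12:44598462-44598524, plus strand: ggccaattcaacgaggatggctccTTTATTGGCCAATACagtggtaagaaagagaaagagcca

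The adaptor and the internodal adhesion gene were close to equal in the libraries. Epb41l3 (ENSMUSG00000024044, plus strand of chromosome 17, 69156810 to 69289989) stood at 340 CPM in cKO and 325 CPM in WT (0.06, interval 0.02 to 0.11). Cadm4 (ENSMUSG00000054793, plus strand of chromosome 7, 24482023 to 24504539) stood at 628 CPM in cKO and 663 CPM in WT (-0.08, interval -0.11 to -0.05), with 99.9% and 99.8% of counts in Cadm4-201. Its cKO level was thus 94.7% of the WT level, in libraries where the summed oligodendrocyte markers differed by a log2 ratio of -1.04. Which cells the Cadm4 RNA came from was not measured.

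Both listed Epb41l3 transcripts were present, and they differ in which of 2 alternative coding exons they carry between the same neighbours. The exons are shown, in capitals between 12 bases of the flanking exons, because they are the coding difference between the 2 transcripts.
Epb41l3-202, exon at chr17:69274101-69274166, plus strand: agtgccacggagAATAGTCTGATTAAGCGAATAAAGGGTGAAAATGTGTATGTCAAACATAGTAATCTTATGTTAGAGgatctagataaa
Epb41l3-201, exon at chr17:69273882-69273917, plus strand: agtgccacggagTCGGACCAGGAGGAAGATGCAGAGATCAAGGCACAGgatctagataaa
Epb41l3-202, with the 66-base exon, had 224 CPM in cKO and 221 CPM in WT (0.02, interval -0.03 to 0.08). Epb41l3-201, with the 36-base exon, had 116 CPM in cKO and 104 CPM in WT (0.15, interval 0.08 to 0.23). The 66-base form took 65.9% of the counts in cKO (Wilson interval 65.0% to 66.9%) and 68.0% in WT (66.9% to 69.1%).

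None of the 10 genes met the size rule (0 lower, 0 higher), which 5.88% of the 15917 measured genes met, 3.42% in the lower direction and 2.46% in the higher. These were 544 lower and 392 higher genes, and 519 lower and 532 higher when the deposited TPM (pseudocount 0.1) was used. At a looser limit of 0.32 on the log2 scale, Nfasc was lower, against 7.84% of measured genes, and Cntn1 and Cntn2 were higher, against 6.23%. In the authors' TPM and FPKM the ratio of Cntn1 was 0.22 and 0.18, under that limit. At 2-fold, 0 of the 10 passed, against 1.15% of measured genes lower and 0.817% higher. Negative ratios were found for 3 of the 10 (Nfasc, Cntnap2 and Cadm4), against 47.7% of measured genes, and positive ones for 7, against 52.3%. The median log2 ratio of the 10 was 0.13, against 0.01 over all measured genes. Nfasc and Cntnap2 lay below the lower quartile of all measured genes (-0.14), 5 genes lay above the upper quartile (0.15), and Nrcam, Epb41l3 and Cadm4 lay between.

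**Figure D2:**
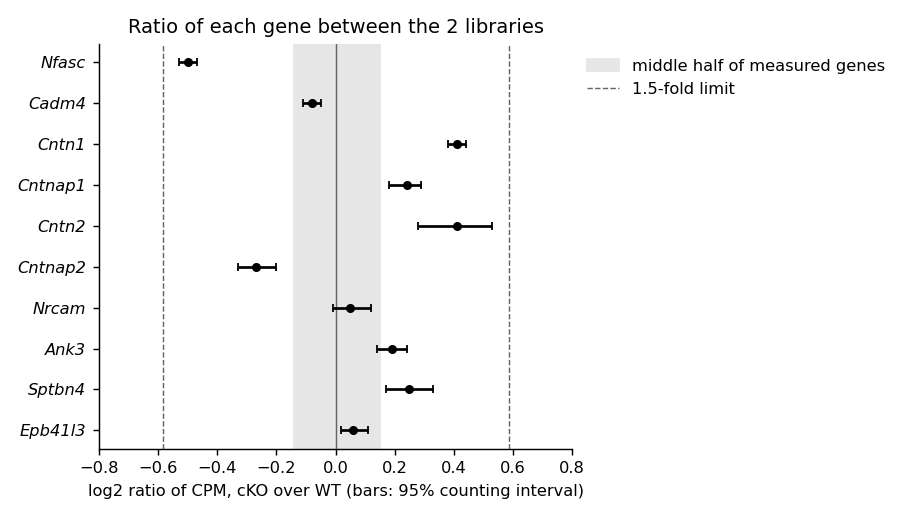
Log2 ratio of CPM, cKO over WT, for each gene (points) with its 95% counting interval (bars); grey spans the lower to the upper quartile of all measured genes and dashed lines the 1.5-fold limits. Nfasc lies farthest to the left at -0.50 and Cntn1 and Cntn2 farthest to the right at 0.41, and 0 of the 10 reach a limit.

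In level per length, the genes kept nearly the same order in both libraries. Cadm4 was the most abundant, at 671 TPM in cKO and 692 TPM in WT. Cntn1 came next in cKO (276 TPM, against 238 in WT) and Nfasc next in WT (225 TPM in cKO, against 303 in WT). Epb41l3 followed at 193 TPM in cKO and 180 in WT, then Ank3 (121 and 108), Nrcam (101 and 96.7) and Cntnap1 (99.5 and 82.4). The lowest were Sptbn4 (38.5 TPM in cKO and 32.8 in WT), Cntnap2 (36.1 and 47.1) and Cntn2 (19.5 and 14.5). The order changed between the libraries for Nfasc with Cntn1 and for Cntnap2 with Sptbn4. Because each group has 1 library, the spread of a level over samples is unknown, and neighbours such as Nrcam and Cntnap1 cannot be ranked beyond it.

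**Figure D3:**
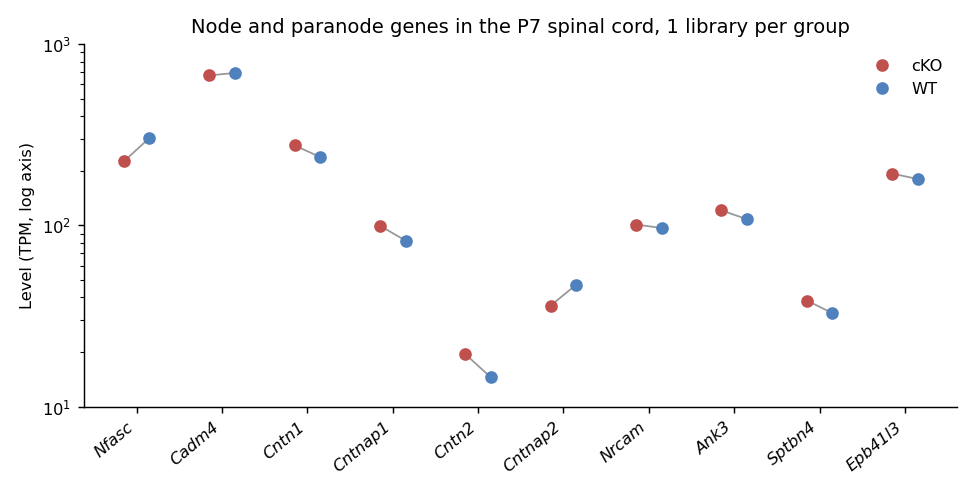
Level of each gene in TPM (log axis) in the cKO library (left point of each pair) and the WT library (right point). Levels run from 14.5 TPM for Cntn2 in WT to 692 TPM for Cadm4 in WT, and each pair of points is close compared with this range.

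Below the level of genes, the division of counts between transcripts was steady for some members and not for others. The share of a gene's counts that sat on different transcripts in the 2 libraries was 1.20% for Nfasc, 2.06% for Epb41l3 and 3.91% for Sptbn4. It was 11.4% for Cntn2, 25.2% for Cntnap2, 26.3% for Ank3, 55.3% for Nrcam and 79.2% for Cntn1. Over 6858 genes with at least 1000 counts in each library and several transcripts, the median was 2.94%, and 99.5% of them had a smaller shift than Cntn1. Of 44 measured transcripts of the 10 genes, 11 were lower and 11 higher by the size rule, against 12.9% of all 32757 measured transcripts lower and 13.2% higher, or 26.1% in either direction. The 13 measured transcripts of Ank3 gave 2 lower and 5 higher, the 7 of Nrcam gave 3 and 2, and the 4 of Cntn1 gave 3 and 1. Transcripts of Ank3 share exons with each other, as do those of the other genes, so they are not separate observations.

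**Figure D4:**
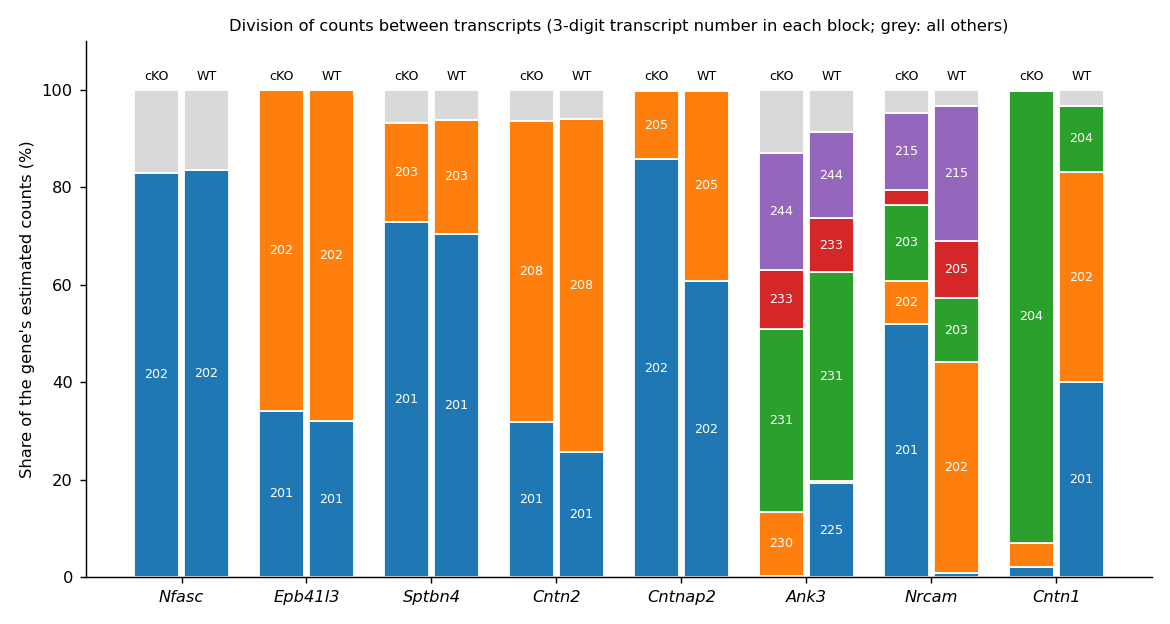
Share of each gene's estimated counts held by its transcripts of at least 10% in either library, with cKO as the left bar and WT as the right bar of each pair. The bars of Nfasc, Epb41l3 and Sptbn4 look alike in both libraries, and those of Cntn1 and Nrcam do not, with Cntn1-204 at 92.9% in cKO and 13.7% in WT.

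As the authors divided the reads, the Cntn1 transcripts moved against each other. Cntn1-204 had 620 CPM in cKO and 69.0 CPM in WT (log2 ratio 3.17). Cntn1-201 was at -3.88, with 13.7 CPM in cKO, and Cntn1-202 had 33.0 CPM in cKO and 216 CPM in WT (-2.71). All 3 carry 3060 coding bases and differ in the first exon and in the length of the last. Most of their reads could thus come from any of them, and a switch between the 3 was not tested. Their sum was 667 CPM in cKO and 486 CPM in WT (0.46, interval 0.42 to 0.49). Cntn1-202 is the shortest at 3964 bases, against 5671 for Cntn1-204, and in TPM the gene's log2 ratio was 0.22 rather than 0.41.

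Nrcam behaved alike. Nrcam-201 had 89.3 CPM in cKO and 1.26 CPM in WT (6.15), while Nrcam-202 had 15.3 CPM in cKO and 71.9 CPM in WT (-2.23). Together these full-length transcripts had 105 CPM in cKO and 73.2 CPM in WT (0.52, interval 0.43 to 0.60). The 14 other transcripts with counts summed to 67.5 CPM in cKO and 92.7 CPM in WT (-0.46, interval -0.55 to -0.37). These parts add up to the gene, whose ratio was 0.05, and their separate values rest on the authors' division of reads. Nrcam-203, a transcript without a coding sequence, had 27.0 CPM in cKO and 22.1 CPM in WT (0.29). Nrcam-215, annotated as subject to nonsense-mediated decay, had 27.6 CPM in cKO and 45.9 CPM in WT (-0.73, interval -0.87 to -0.59), lower by the size rule. The short transcript Nrcam-214 had 2.70 CPM in cKO and 1.14 CPM in WT (1.24). Nrcam-205, with 5 exons, had 4.99 CPM in cKO and 19.4 CPM in WT (-1.96).

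Ankyrin G is known in a giant form of neurons that gathers at the node and in shorter forms found more widely, and the giant form is set apart by a very large exon. In the annotation that exon has 7674 bases (2558 codons), at 69986089 to 69993762 of chromosome 10, and only Ank3-244 holds it whole. Ank3-244 had 74.7 CPM in cKO and 48.2 CPM in WT (0.63, interval 0.52 to 0.74), higher by the size rule. It is an incomplete transcript of 8612 bases, all coding, in 9 exons, where Ank3-231 has 43. Reads from exons outside these 9 could be given only to other transcripts, whether or not their RNA held the giant exon. Ank3-225, which holds 2759 of those bases and is annotated as subject to nonsense-mediated decay, had 0.617 CPM in cKO and 52.8 CPM in WT (-6.42). Summed over the 6 transcripts with any base of the giant exon, the level was 119 CPM in cKO and 139 CPM in WT (-0.22, interval -0.29 to -0.15). The 37 transcripts with none summed to 194 CPM in cKO and 136 CPM in WT (0.51, interval 0.45 to 0.58). Of these, Ank3-231, with the most counts of the Ank3 transcripts in both libraries, had 117 CPM in cKO and 118 CPM in WT (-0.01). Per length it was not the most abundant in WT, where it had 26.5 TPM and Ank3-225 had 27.6 TPM. Ank3-230 had 41.1 CPM in cKO and 1.24 CPM in WT (5.06). Ank3-233, which holds 2544 bases of the giant exon, had 38.3 CPM in cKO and 30.7 CPM in WT (0.32, interval 0.17 to 0.46). The remaining Ank3 transcripts past the size rule were at low levels, with Ank3-210 (1.73), Ank3-240 (0.95) and Ank3-221 (2.23) higher and Ank3-236 (-0.71) lower. Ank3-210 had 14.6 CPM in cKO and 4.41 CPM in WT, and the other three stayed under 5 CPM in both.

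For beta-IV spectrin, the long and the main shorter transcript did not meet the size rule and a minor one did. Sptbn4-201, with 36 exons, had 86.4 CPM in cKO and 70.1 CPM in WT (0.30, interval 0.21 to 0.40), and took 73.0% and 70.5% of the gene's counts. The 19-exon transcript Sptbn4-203, which begins downstream and lacks 17 inner coding exons of Sptbn4-201, had 24.0 CPM in cKO and 23.2 CPM in WT (0.05, interval -0.12 to 0.22). The minor transcript Sptbn4-204 had 4.28 CPM in cKO and 2.35 CPM in WT (0.86, interval 0.38 to 1.37), higher by the rule. For Cntn2, the coding transcript Cntn2-201 had 915 counts in cKO and 431 in WT (log2 ratio of CPM 0.72, interval 0.49 to 0.96), higher by the size rule. Cntn2-208, annotated with a retained intron, had 1767 counts in cKO and 1151 in WT (0.26), and held 61.7% of the Cntn2 counts in cKO and 68.4% in WT. Cntn2-204 had 136 counts in cKO and 0 in WT, and took 4.75% of the gene's counts in cKO.

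Other genes of the node region were compared by list. Ion channels of the node, initial segment and juxtaparanode lay close together: 0 of 18 met the size rule in either direction, 16 of 18 lay above 0, and the median was 0.17, where 5.88% of all measured genes met the rule and 52.3% lay above 0. Scn8a, the main sodium channel of mature nodes, had 231 CPM in cKO and 186 CPM in WT (0.32), and Scn2a, the channel of immature nodes, had 190 and 204 CPM (-0.10). The direction for Scn2a depended on the scale, since it had 66.6 TPM in cKO and 58.1 TPM in WT. Scn8a was higher in cKO by TPM too (67.6 and 54.3). Paralogues of the 10 genes had a median of 0.23, with 0 of 24 measured members past the rule and 18 above 0, beside the same 5.88% and 52.3%. The alpha spectrin gene Sptan1 had 1015 CPM in cKO and 802 CPM in WT (0.34), and the beta spectrin gene Sptbn1 had 1135 and 971 CPM (0.23).

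Among juxtaparanode scaffold genes, the median was 0.10. By the size rule 0 of 10 measured entries were lower and 1 was higher, against 3.42% and 2.46% of all measured genes. The higher entry was Dlg2, for the scaffold PSD-93, at 283 CPM in cKO and 153 CPM in WT (0.88, interval 0.82 to 0.94). A second identifier of the same symbol was at 2.16 and 1.72 CPM. Dlg4, for PSD-95, had 347 CPM in cKO and 323 CPM in WT (0.10), and Adam22, a receptor of the same complex, had 237 and 220 CPM (0.11). Matrix genes of the node had a median of -0.09 with 0 of 10 past the rule, against 5.88% of all measured genes. Of these 10, 7 lay below 0, against 47.7% of all measured genes. The proteoglycan gene Bcan had 318 CPM in cKO and 368 CPM in WT (-0.21), and Ncan had 534 and 539 CPM (-0.01).

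Glial genes of the paranode and the myelin membrane stood at the other end. By the size rule 9 of 10 were lower, against 3.42% of all measured genes, with a median of -0.84; the exception was Cd9, a tetraspanin, at 107 CPM in cKO and 127 CPM in WT (-0.26). Ugt8a, which makes the galactolipids on which paranodes depend, had 339 CPM in cKO and 802 CPM in WT (-1.24, interval -1.28 to -1.20). Gal3st1, which sulphates them, had 63.7 and 110 CPM (-0.79), and Fa2h, which hydroxylates their fatty acids, had 45.2 and 134 CPM (-1.57). Mbp, for myelin basic protein, had 2854 CPM in cKO and 5277 CPM in WT (-0.89). Cldn11 was at -1.05, Pllp at -0.80, Cnp at -0.75 and Mag at -0.65. The 10 node and paranode genes had ratios on both sides of 0, and the part of the markers of oligodendrocytes (8 of 8 lower by the rule) and of neurons (11 of 12 above 0) in the members' ratios was not tested.

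**Figure D5:**
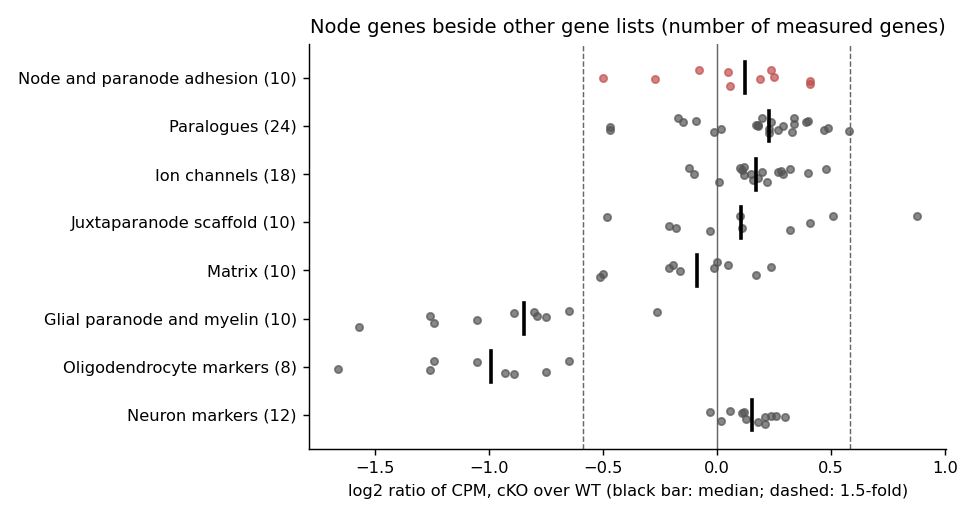
Log2 ratio of CPM, cKO over WT, for each measured gene (points) of the node and paranode adhesion genes, of 5 further lists and of oligodendrocyte and neuron markers; black bars are medians and dashed lines the 1.5-fold limits. The glial paranode and myelin list (median -0.84) lies left of the node and paranode genes (median 0.13), and the ion channel list (0.17) lies near them.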

How the data were processed

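The data are 1 cKO and 1 WT spinal cord library. CASAVA, Bowtie2 2.3.2 and GRCm38.p6 appear, with no role, in the submitters' processing notes. What did the counting, on which annotation and with what strand setting is not given in the sources used here. Per the file headers, the authors deposited estimated counts, TPM and FPKM per gene and transcript. FPKM times length, scaled by 1 factor per library, fell short of the deposited count by up to 1 unit (tolerance 0.1) in 98.8% of cKO and 98.9% of WT transcripts under 50 counts, so the counts are rounded-up estimates.

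Intervals take 1 fragment as 2 counts, because these estimates lay near even numbers more often than near odd ones in single-transcript genes (tolerance 0.2). The size of that excess depends on the range of values read. Between 0.5 and 50 units, 27.5% of cKO values were near an even number and 22.3% near an odd one, against 28.5% and 21.5% in WT. Between 0.5 and 5, 29.2% of cKO values were near an even number and 24.6% near an odd one, against 30.4% and 24.2% in WT. Between 1.5 and 10, 38.9% of cKO values were near an even number and 15.7% near an odd one, against 41.5% and 14.4% in WT; this last range was chosen after the others had been seen. Intervals on counts as deposited are the alternative.

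CPM used library totals scaled by TMM (edgeR 4.0.16, R 4.3.3), and exact Clopper-Pearson intervals of ratios and Wilson intervals of shares were computed on fragments (scipy 1.17.1, Python 3.11.15). They cover counting error only. PCR copies are not independent molecules. Where a count was 0, a floor of 3 fragments stood in for it. Alternatives were DESeq2 1.42.0 size factors, other scalings, units, filters and limits. Exons and transcript names are from GENCODE M21 (GRCm38), which holds 51633 of the 51826 gene IDs; sequences were read from its transcripts.

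The members and lists were chosen with earlier results of these data known. Named were all members, their transcripts of at least 10% of a gene's counts, further Nfasc, Ank3, Nrcam and Epb41l3 transcripts past the size rule, and from each further list the genes past the rule and the 2 of highest level; a gene that the rule would name is not reported here. Transcript groups, Nfasc-201, Nfasc-203, Nfasc-205, Cntn1-203, Cntn2-204, Sptbn4-204 and Cd9 were chosen after their values were seen. Genes of like pattern are not named, since 2 libraries give no measure of likeness.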

Additional observations from a re-analysis of the deposited data

How the results depend on the processing

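The counts of 0 members lower and 0 higher held under each scaling (upper quartile, DESeq2 size factors, library totals), on the authors' TPM and FPKM, under both other filters on level, with intervals on counts as deposited, with counts summed over genes that share exons, and at a limit of 2-fold. At a limit of 0.32 on the log2 scale, 1 member was lower (Nfasc) and 2 were higher (Cntn1 and Cntn2), beside 1248 lower and 992 higher of all measured genes. At 2-fold, 183 measured genes were lower and 130 higher. The measured genes past the rule numbered 306 lower and 190 higher with a filter of 5 CPM, 831 lower and 659 higher with no filter, and 354 lower on TPM with a pseudocount of 1, against 544 and 392. Over 8 alternatives (scaling, unit, interval and shared exons) the ratio of Nfasc ran from -0.50 to -0.43, that of Cntn1 from 0.18 to 0.43 and that of Cntnap2 from -0.42 to -0.25, and each of the 10 genes kept its sign. Grouping transcripts, an alternative added after the data were seen, reversed the sign for the giant-exon part of Ank3 (-0.22), the retained-intron Cntn1 transcript (-4.52) the Nrcam transcripts that are not full length (-0.46) and the full-length part of Cntnap2 (0.23); these are parts of a gene's counts by construction. No paired analysis was possible because each group has 1 library, and for the same reason no library could be left out. Depth limits Cntn2 most, whose ratio has an interval of 0.28 to 0.53.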

Other observations

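Some genes of the further lists had ratios of CPM near that of Nfasc, and they were chosen after their values were seen. Such ratios were not confined to these lists, since 5.30% of all measured genes lay below Nfasc. Chl1, an L1-family relative of Nfasc and Nrcam, had 223 CPM in cKO and 310 CPM in WT (log2 ratio -0.47, interval -0.52 to -0.42), while L1cam, another relative and X-linked, had 210 CPM in cKO and 167 CPM in WT (0.33, interval 0.27 to 0.39). Epb41l2, a relative of Epb41l3, had 195 CPM in cKO and 271 CPM in WT (-0.47, interval -0.52 to -0.42). Tnr, a matrix protein that oligodendrocytes lay down at nodes, had 235 CPM in cKO and 334 CPM in WT (-0.51, interval -0.55 to -0.46). Hapln2, the link protein of the nodal matrix, had 18.1 CPM in cKO and 25.5 CPM in WT (-0.50, interval -0.67 to -0.32). Adam23 had 83.3 CPM in cKO and 116 CPM in WT (-0.48, interval -0.57 to -0.40), and its relative Adam22 was at 0.11. By TPM, however, Adam23 was not lower in cKO (52.6, against 50.3 in WT), and Chl1 had 83.2 in cKO and 96.9 in WT. Epb41l2 (148 and 198 TPM), Tnr (52.6 and 70.4) and Hapln2 (23.1 and 33.8) were lower in cKO on that scale too. None of the genes named here met the size rule.

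Most contactin and Caspr relatives that are not described at the node lay above 0, as did 52.3% of all measured genes. Cntn4 had 36.5 CPM in cKO and 26.1 CPM in WT (0.49), Cntn5 had 13.8 and 9.23 CPM (0.58), Cntnap3 had 10.4 and 7.93 CPM (0.39) and Cntnap4 had 48.5 and 35.1 CPM (0.47). Cntn6 was at 0.27, Cntnap5a at 0.18 and Cntnap5c at 0.20, the last with an interval of -0.09 to 0.49. Cntn3 was at -0.01 and Cntnap5b at -0.17, both with intervals that included 0.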
